A study of Mus musculus with 12 samples.

Results

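The genes described here are 44 interferon-stimulated genes, a listed set whose transcription is raised by type I or type II interferon. They were found by their gene symbol on Illumina mouse bead arrays, where 40 of the 44 had at least 1 probe and 63 probes in all. Probes of 31 of them were detected on at least 2 arrays and were tested, out of 13190 genes tested. Isg15, Irgm1, Xaf1 and Parp9 were not on the array under these symbols. Ifih1, Oas1a, Oas3, Ifit1, Mx1, Iigp1, Ifi44, Rtp4 and Cxcl10 were on the array but too dim to be tested.

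The arrays compared 4 sources of peritoneal or splenic cells, all from mice of a mixed C3H and C57BL/6 background and all labelled with the disease chronic lymphocytic leukaemia (CLL), wild type included. TCL1 is an oncogene that, expressed as a transgene in mouse B cells, leads to a disease like CLL. Cells were classed by binding to phosphatidylcholine (PtC), a membrane lipid that many B-1 B cells recognise as a self antigen as binding (PtC+) or non-binding (PtC-) cells. TCL1-192 spleen and TCL1-192 peritoneum gave 2 arrays of each class, and young TCL1 peritoneum and wild type peritoneum gave 1 array of each class, 12 in all. The labels give no treatment, no age beyond the word young, no promoter for the transgene and no count of animals, and they do not explain the 192. The study asked which expression differences go with responsiveness to autoantigen.

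Interferons act through receptors whose Janus kinases phosphorylate STAT proteins. Type I interferon leads mainly to a complex that holds STAT2 and IRF9 and binds the interferon-stimulated response element, and interferon gamma to STAT dimers on the gamma-activated site. The induced genes encode sensors of viral nucleic acid, transcription factors that extend the response, enzymes and membrane proteins that block viral growth, GTPases that attack vacuoles of intracellular microbes, and parts of the antigen processing machinery. Interferons also act on B cells, where they modulate activation and antibody responses.

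The response element was searched as 2 runs of GAAA with any 2 bases between them, and the gamma-activated site as TTCNNNGAA, on both strands, in RefSeq windows of 250 bases before to 50 bases after a gene's start (build GRCm38.p6). The table held windows of 33 of the 44 listed genes, matched by symbol, and none for Usp18, Oas2, Dhx58, Mx1, Mx2, Rtp4, Iigp1, Parp14, Parp9, Zbp1 and Trim30. These genes had 40 windows, since some have several starts. The response element was present in 17 of the 40 (42.5%), against 3.44% of all 32851 windows, and the gamma-activated site in 11 of the 40 (27.5%), against 8.30% of all windows. These are matches of letters, not sites shown to be bound. The stretches below belong to genes whose levels differed between groups, and capitals mark matches to the response element or its reverse complement. Each is printed 5′ to 3′ on the gene's own strand, with 20 bases of context on each side of the outer matches.
Rsad2, chr12:26456543-26456592, minus strand: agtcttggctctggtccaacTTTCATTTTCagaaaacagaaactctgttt
Gbp2, chr3:142620584-142620633, plus strand: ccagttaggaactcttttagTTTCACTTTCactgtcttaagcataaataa
Igtp, chr11:58199502-58199551, plus strand: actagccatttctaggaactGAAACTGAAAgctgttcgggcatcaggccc
Gbp3, chr3:142559979-142560034, plus strand: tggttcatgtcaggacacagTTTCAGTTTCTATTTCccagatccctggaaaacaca
Ifit3, chr19:34583353-34583436, plus strand: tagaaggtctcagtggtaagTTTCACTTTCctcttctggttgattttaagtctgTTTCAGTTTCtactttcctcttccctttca
The match of Igtp begins at position -34 from the annotated start, that of Gbp2 at -59 and that of Rsad2 at -120. Gbp3 holds 2 overlapping matches, printed as 1 run of capitals, and Ifit3 holds 2 separate ones. Among tested genes with a window, the response element was found for 3 of the 7 that rose in spleen, described next, and for 7 of the 16 that were not called there.

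Tap1 and Psmb9 are neighbours read in opposite directions from 1 shared stretch, shown because different comparisons called each of the pair. The 225 bases between their starts, chr17:34187331-34187555 on the strand of Tap1, hold neither motif in the letters searched.
Tap1-Psmb9: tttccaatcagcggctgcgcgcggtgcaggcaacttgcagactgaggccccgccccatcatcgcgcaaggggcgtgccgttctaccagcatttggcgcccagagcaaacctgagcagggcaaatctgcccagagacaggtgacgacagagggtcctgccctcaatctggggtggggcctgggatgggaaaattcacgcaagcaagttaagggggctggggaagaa

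Values are log2 intensities after background correction and quantile normalization, and a probe counts as detected on an array where its detection p-value is under 0.05. The PtC- peritoneal TCL1-192 array of replicate 2 stood apart, with a raised background (mean signal of undetected probes 205.4, against 93.12 to 114.0 on the other arrays) and 10711 of 45281 probes detected, against 13825 to 15192. It detected 19 of the 31 genes, and the other arrays 22 to 29. The SD between replicates of the 31 genes was 0.180 in PtC+ spleen, 0.225 in PtC- spleen, 0.287 in PtC+ peritoneum and 0.459 in PtC- peritoneum. The 6 tested B cell markers, Cd79b and Ms4a1 among them, were detected on every array, with a mean log2 level of 11.91 to 12.40. Of 17 tested macrophage and monocyte markers, 14 were lower in TCL1-192 spleen than in TCL1-192 peritoneum and none was higher. Their mean log2 level was 5.47 to 5.59 on spleen arrays, against 8.93 to 9.67 on TCL1-192 peritoneal arrays, 8.92 to 9.99 on young TCL1 arrays and 9.64 to 10 on wild type arrays. Lyz2, the macrophage lysozyme, was not detected on any spleen array (5.01 to 5.44) and read 11.95 to 13.10 on the TCL1-192 peritoneal arrays. The lysozyme entry Lyz was detected on all 12 arrays, at 6 to 7.09 in spleen and 13.79 to 14.79 in TCL1-192 peritoneum. Lyz2, Lyz, Lyzs and Lyz1 each count among the 17 markers. The number of arrays limits the precision. Since nothing says that replicates came from separate animals, a p-value reflects only how far repeated TCL1-192 arrays lay apart, and that variation may be technical. In such bulk samples fewer cells of a type and less RNA per cell cannot be told apart.

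The interferon-stimulated genes were higher in TCL1-192 spleen than in TCL1-192 peritoneum for 11 of 31, lower for 1 and not called for 19. The genes that rose were Rsad2, Usp18, Oas2, Irf7, Gbp2, Tap1, Dhx58, Mx2, Oasl2, Samhd1 and Igtp, and the gene that fell was Ifi47. Across all genes tested 15.5% were higher and 11.1% lower in this comparison (limma, adjusted p under 0.05). Differences of the 31 had a median of 0.44 on the log2 scale, against -0.02 for all genes, and 24 of the 31 lay above 0 (48.2% of all genes). With the 6 genes that were undetected on a whole side set at their bound, the median was 0.30. On 13 genes all 4 spleen arrays lay above all 4 peritoneal arrays (16.9% of all genes), and on 1 gene all lay below (12.7% of all genes). Oas2 and Mx2 were detected in spleen alone, and Irf7 and Usp18 on 1 array outside it, so that these 4 genes entered the test only through spleen, where they are high. With detection required on 6 arrays, 7 of 25 genes were higher and 1 was lower. Of all 10484 genes then tested, 1989 were higher and 1540 lower (33.7% called in either direction). Besides the macrophage markers given above, 4 of 6 erythroid markers, 2 of 4 T cell markers and the stromal marker Dcn were lower in spleen. Higher in spleen were 3 of 4 B-1 cell markers (mean log2 level 10.89 to 11.17, against 9.62 to 10.30 in peritoneum). So were 2 of 4 neutrophil markers and 1 of 3 natural killer cell markers. Ly6d and Pacsin1, the only 2 tested of 10 listed dendritic cell markers, were higher too (8.71 to 9.24, against 7.34 to 7.61). Ly6d was detected on all 12 arrays, as were the B cell markers, and Pacsin1 on 8. Whether these 2 genes follow dendritic cell content was not tested. The part of these markers' cell types in the differences was not tested.

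**Figure D1:**
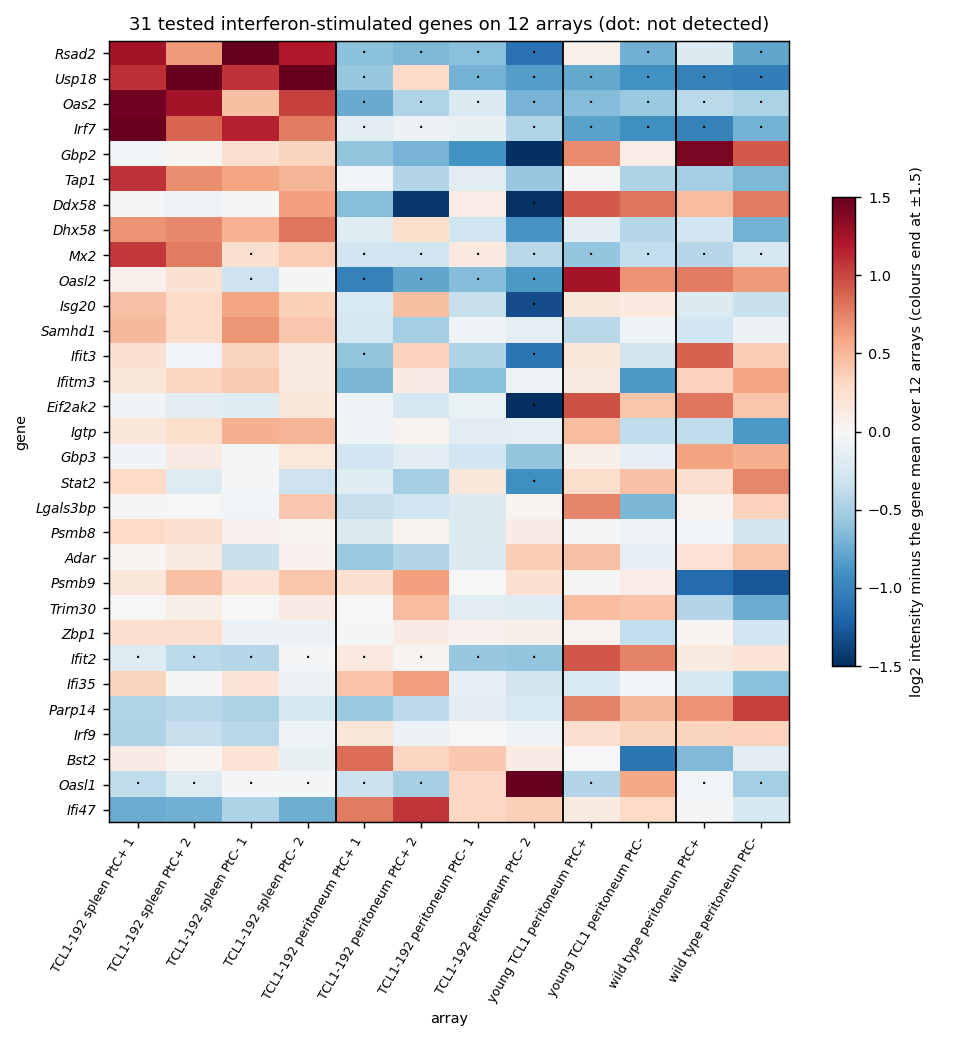
Each row is 1 of the 31 tested interferon-stimulated genes and each column 1 of the 12 arrays, grouped from left to right as TCL1-192 spleen, TCL1-192 peritoneum, young TCL1 and wild type peritoneum. Colour is the log2 intensity minus the gene's mean over the 12 arrays, with colours ending at 1.5 either way, and a dot marks an array that did not detect the gene; Rsad2, Usp18, Oas2 and Irf7 stand out in red on the 4 spleen arrays, and Ifi47 in blue.

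In what follows, 4 values of a TCL1-192 tissue are PtC+ replicates 1 and 2, then PtC- replicates 1 and 2, and a pair of values for young TCL1 or wild type is PtC+ then PtC-. Among the sensors of viral RNA, Dhx58 (LGP2, a helicase without signalling domains that tunes the other RNA sensors; chromosome 11) had log2 levels of 8.66, 8.71, 8.51 and 8.79 in TCL1-192 spleen, against 7.81, 8.25, 7.69 and 7.11 in TCL1-192 peritoneum. Every spleen array lay above every peritoneal array. Dhx58 rose by a log2 difference of 0.96 ± 0.18 (SE; limma adjusted p = 0.0102), a call lost without PtC- spleen replicate 2. Its young TCL1 levels of 7.83 and 7.56 and wild type levels of 7.70 and 7.28 lay within the TCL1-192 peritoneal range. Ddx58 (RIG-I, which senses viral RNA ends) had a log2 difference of 1.00 ± 0.37 between spleen and peritoneum and was not called (limma adjusted p = 0.092). Its spleen levels of 7.48 to 8.16 overlapped the TCL1-192 peritoneal levels of 6.06 to 7.65. Zbp1, a sensor of left-handed nucleic acid, had a log2 difference of 0.02 ± 0.12 and was not called.

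Irf7, the transcription factor that amplifies type I interferon production (chromosome 7), had log2 levels of 7.22, 6.63, 6.91 and 6.52 in TCL1-192 spleen, against 5.58, 5.66, 5.64 and 5.30 in TCL1-192 peritoneum. It was detected on all 4 spleen arrays and on 1 of 4 peritoneal arrays, with no overlap. The log2 difference was 1.28 ± 0.19 (limma adjusted p = 0.00372). None of the young TCL1 arrays (4.95 and 4.83) or wild type arrays (4.74 and 5.04) detected it. Irf9 and Stat2, which act in 1 complex on interferon response elements, were not called, with log2 differences of -0.33 ± 0.14 and 0.30 ± 0.27. Usp18, a protease that removes the ubiquitin-like protein ISG15 and dampens the type I receptor (chromosome 6), had log2 levels of 7.12, 7.62, 7.11 and 7.78 in TCL1-192 spleen, against 5.46, 6.31, 5.31 and 5.20 in TCL1-192 peritoneum. Spleen and peritoneum did not overlap, and the PtC+ peritoneal array of replicate 2 alone detected Usp18 outside spleen. Its log2 difference was 1.84 ± 0.25 (limma adjusted p = 0.00293).

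Of the oligoadenylate synthetase family, which answers double-stranded RNA, 3 genes were tested and 2 rose. Oas2 (chromosome 5) had log2 levels of 6.86, 6.65, 5.85 and 6.43 in TCL1-192 spleen, against 4.65, 4.95, 5.20 and 4.71 in TCL1-192 peritoneum. All spleen arrays and none of the other 8 arrays detected Oas2. Where a gene is undetected on every array of a side, its fold is a lower bound, with that side set, on each array, at the lowest level detected there if that is higher. Oas2 was at least 1.5-fold higher in spleen (limma adjusted p = 0.00202). Oasl2, a synthetase-like relative (chromosome 5), had log2 levels of 5.85, 6.00, 5.47 and 5.75 in TCL1-192 spleen, against 4.76, 4.99, 5.13 and 4.91 in TCL1-192 peritoneum. It was detected on 3 of 4 spleen arrays and no peritoneal array of TCL1-192, without overlap (limma adjusted p = 0.00669), but so close to background that no fold is given. Oasl1 was not detected in spleen and not called.

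Rsad2 (viperin, an enzyme of the endoplasmic reticulum that limits many viruses; chromosome 12) had log2 levels of 7.12, 6.51, 7.45 and 7.07 in TCL1-192 spleen, against 5.25, 5.19, 5.24 and 4.75 in TCL1-192 peritoneum. Every spleen array and no TCL1-192 peritoneal array detected it. Rsad2 was at least 2.26-fold higher in spleen (limma adjusted p = 0.00109). In young TCL1 cells (5.95 and 5.15) and in wild type cells (5.66 and 5.09) the PtC+ array detected Rsad2 and the PtC- array did not, and all 4 lay below the spleen arrays. Mx2, a dynamin-like antiviral GTPase, had log2 levels of 6.35, 6.07, 5.53 and 5.67 in TCL1-192 spleen, against 5.0, 4.99, 5.43 and 4.87 in TCL1-192 peritoneum. It was detected on 3 spleen arrays and on no other array. Mx2 was at least 1.03-fold higher in spleen (limma adjusted p = 0.0111), a call lost without PtC+ spleen replicate 1 or PtC- spleen replicate 2. Samhd1, which breaks down the nucleotides that reverse transcription needs (chromosome 2), had log2 levels of 11.11, 10.91, 11.28 and 11.03 in TCL1-192 spleen, against 10.36, 10.11, 10.55 and 10.47 in TCL1-192 peritoneum. The groups did not overlap, and the young TCL1 levels of 10.20 and 10.56 and the wild type levels of 10.33 and 10.53 also lay below all spleen arrays. Its log2 difference was 0.71 ± 0.14 (limma adjusted p = 0.0102), but it was not called with the mean of its kept probes or without PtC- spleen replicate 1.

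The other antiviral genes were not called between spleen and peritoneum. Isg20, an exonuclease for single-stranded RNA, had a log2 difference of 0.79 ± 0.26 (limma adjusted p = 0.0614). Ifitm3, which blocks the entry of viruses from endosomes, had spleen levels of 10.25 to 10.51 all above TCL1-192 peritoneal levels of 9.43 to 10.24 on the log2 scale. Its log2 difference of 0.57 ± 0.22 did not pass (limma adjusted p = 0.105). The log2 difference of Ifit3, which binds viral RNA together with its relatives, was 0.62 ± 0.25 and was not called. Eif2ak2 (the kinase PKR), Adar (an RNA editing enzyme) and Bst2 (tetherin, which holds budding virus at the membrane) had log2 differences from -0.36 to 0.54 and were not called, and Ifit2 was undetected in both tissues.

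The interferon-inducible GTPases went both ways. Gbp2, a guanylate-binding protein that coats vacuoles of microbes (chromosome 3), had log2 levels of 10.09, 10.18, 10.38 and 10.47 in TCL1-192 spleen, against 9.54, 9.44, 9.24 and 8.58 in TCL1-192 peritoneum. Its groups did not overlap, and the log2 difference was 1.08 ± 0.17 (limma adjusted p = 0.00492). Igtp, an immunity-related GTPase (chromosome 11), had log2 levels of 10.18, 10.28, 10.54 and 10.52 in TCL1-192 spleen, against 9.95, 10.07, 9.84 and 9.88 in TCL1-192 peritoneum. All spleen arrays lay above all peritoneal arrays, the nearest pair 0.1 apart, and the log2 difference of 0.44 ± 0.12 passed (limma adjusted p = 0.0324). Leaving out single TCL1-192 arrays ended this call for 6 of the 8, namely both arrays of PtC+ spleen, of PtC- spleen and of PtC+ peritoneum, and it failed within each PtC class alone. Ifi47, another immunity-related GTPase (chromosome 11), had log2 levels of 8.77, 8.79, 9.05 and 8.78 in TCL1-192 spleen, against 10.29, 10.58, 9.82 and 9.87 in TCL1-192 peritoneum. Every spleen array lay below every peritoneal array, those of young TCL1 (9.65 and 9.81) and wild type (9.48 and 9.27) included. Ifi47 fell by 1.29 on the log2 scale with an SE of 0.14 (limma adjusted p = 0.00117). Gbp3 had a log2 difference of 0.38 ± 0.14 and was not called, although its arrays did not overlap.

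In antigen processing, Tap1, a subunit of the transporter that moves peptides into the endoplasmic reticulum (chromosome 17), had log2 levels of 9.64, 9.25, 9.15 and 9.07 in TCL1-192 spleen, against 8.51, 8.11, 8.40 and 7.99 in TCL1-192 peritoneum. Spleen lay above every peritoneal array, with a log2 difference of 1.02 ± 0.17 (limma adjusted p = 0.00642). Psmb9, the immunoproteasome subunit read from the other side of the same stretch, had log2 levels of 12.30 to 12.58 in spleen and 12.13 to 12.75 in TCL1-192 peritoneum. The ranges overlapped, with a log2 difference of 0.03 ± 0.16. Psmb8, another immunoproteasome subunit, had a log2 difference of 0.22 ± 0.14 and was not called. Parp14 (a mono-ADP-ribosyltransferase), Ifi35, Trim30 (now named Trim30a) and Lgals3bp (a secreted galectin-binding protein) had log2 differences from -0.06 to 0.30 and were not called.

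Without the PtC- peritoneal array of raised background, 12 of the 31 genes were higher in TCL1-192 spleen and 1 was lower, beside 29.9% of all genes called in either direction. Without the other PtC- peritoneal array, which leaves the raised-background array alone in its group, 17 were higher and 2 lower, beside 45.1% of all genes called in either direction. When arrays were centred on their medians in place of quantile normalization, the median difference of all genes moved to 0.24 and that of the 31 genes to 0.80, and 16 of the 31 were higher and 1 lower. Of all 13190 genes, 2689 were then higher and 350 lower.

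**Figure D2:**
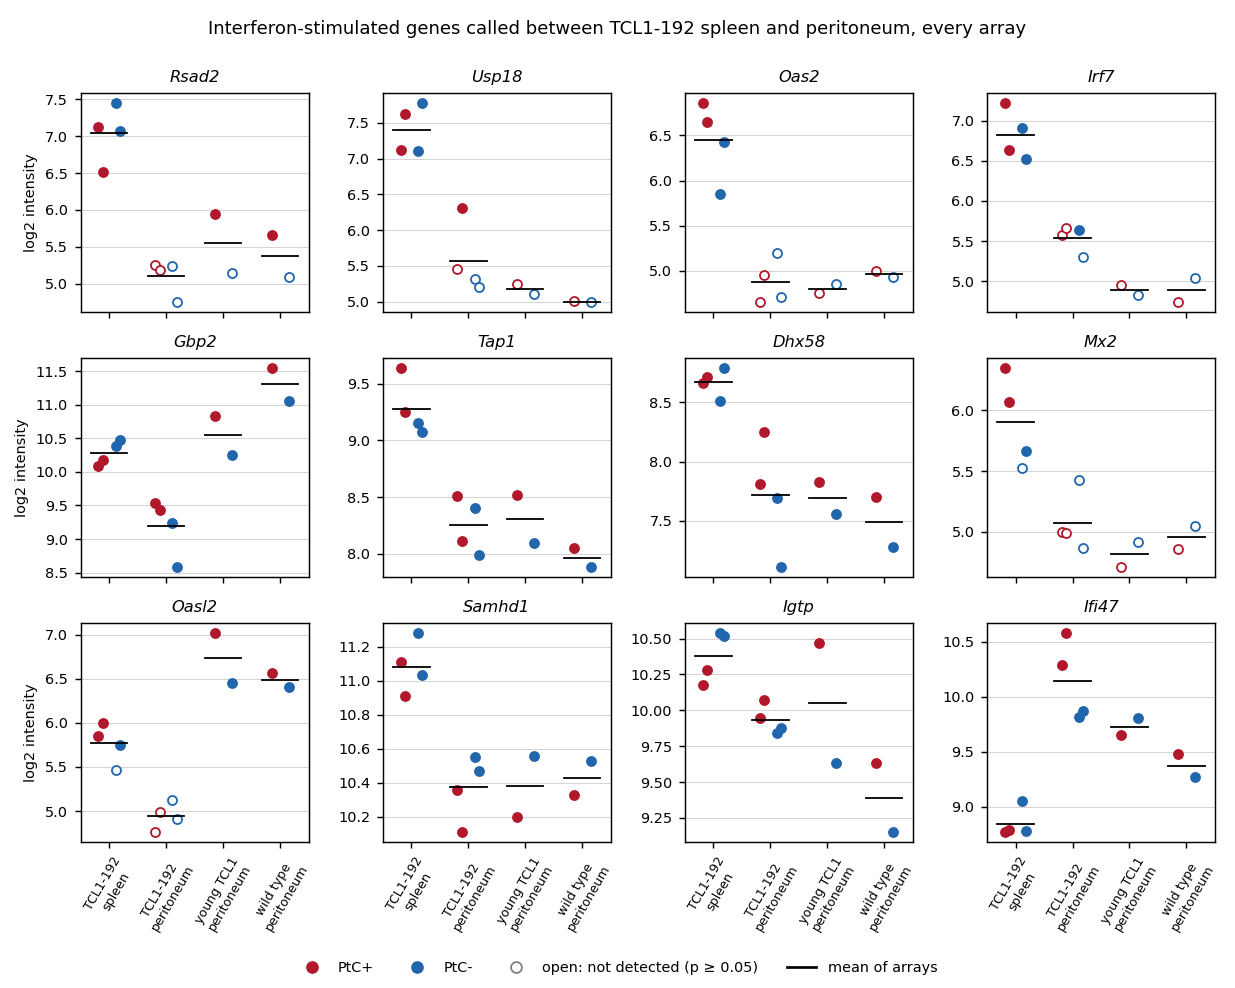
Each panel is 1 of the 12 interferon-stimulated genes called between TCL1-192 spleen and TCL1-192 peritoneum, and each point 1 array, with log2 intensity on an axis that does not start at 0. Red points are PtC+ cells, blue points PtC- cells, open points arrays that did not detect the gene, and lines the mean of the arrays of a tissue and genotype; the 4 spleen points lie above the TCL1-192 peritoneal points in 11 panels and below them for Ifi47.

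The other genes of the pathway are given from 3 lists matched by symbol, and they did not share 1 direction. Of 24 tested ligands, receptors, kinases and factors, 4 were higher and 6 lower in TCL1-192 spleen than in TCL1-192 peritoneum. For these lists too, the share of all genes was 15.5% higher and 11.1% lower. Socs3, an inhibitor of cytokine receptors, was higher by a log2 difference of 1.10 ± 0.28, and the Janus kinase Jak2 by 0.84 ± 0.16. Irf8, a factor of B cell and myeloid development, fell by 1.22 on the log2 scale, while Ifngr2, a chain of the interferon gamma receptor, was higher by a log2 difference of 0.82 ± 0.16. Of 15 sensors and adaptors, 2 were higher and 3 lower. Traf3, an adaptor of sensor signalling, had a log2 difference of 1.17 ± 0.21, and the cytosolic DNA sensor Cgas (E330016A19Rik on the array) one of -1.67 ± 0.22. Of 48 further interferon-induced genes, 13 were higher and 4 lower. Gbp6 had a log2 difference of 1.35 ± 0.21, Tap2, the partner of Tap1 in the peptide transporter, one of 1.02 ± 0.12, Gbp1 one of 0.99 ± 0.16, and the ubiquitin ligase Trim21 one of -1.08 ± 0.12.

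In the peritoneum, TCL1-192 cells differed from wild type cells in 12 of the 31 interferon-stimulated genes, 6 higher and 6 lower. Psmb9, Bst2, Ifi47, Trim30, Ifi35 and Igtp were higher in TCL1-192 cells, and Gbp2, Oasl2, Ddx58, Parp14, Ifit3 and Gbp3 were lower. Across all genes tested 11.8% were higher and 15.6% lower (limma, adjusted p under 0.05). The median log2 difference of the 31 was -0.09, against 0.03 for all genes, and 0.00 with the 8 genes undetected on a side at their bound. All 4 TCL1-192 arrays lay above both wild type arrays for 7 genes (19.8% of all genes) and below them for 11 (23.4% of all genes). With median centring, which moved the median of all genes to -0.23, 1 of the 31 was higher and 10 were lower, beside 499 of all genes higher and 2309 lower. Without the raised-background array 7 were higher and 9 lower, beside 32.5% of all genes called in either direction. Spleen arrays enter this comparison only through the estimate of the spread. Leaving out 1 of them at a time kept the median of the 31 at -0.09, yet fewer of the 31 and fewer of all genes were called. The median of the 31 was -0.16 without PtC+ peritoneal replicate 2 (0.02 for all genes). Without PtC+ peritoneal replicate 1 it was -0.01 (0.03 for all genes). Erythroid markers moved with this comparison, 4 of 6 tested being higher in TCL1-192 peritoneum (mean log2 level 8.46 to 9.02, against 5.19 to 5.54 in wild type). Mast cell markers moved the other way, 3 of 4 tested being lower (4.82 to 5.18 in TCL1-192 peritoneum, against 8.31 to 8.87 in wild type), and of 17 macrophage markers 3 were higher and 6 lower. Ly6d and Pacsin1, listed as dendritic cell markers, were lower (7.34 to 7.61 in TCL1-192 peritoneum, against 11.16 to 11.20 in wild type). So were 2 of 4 B-1 cell, 2 of 4 T cell and 1 of 4 neutrophil markers, and the stromal marker Dcn was higher. The part of these cell types in the differences was not tested.

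Psmb9 had log2 levels of 12.36, 12.75, 12.13 and 12.38 in TCL1-192 peritoneum, against 10.98 and 10.87 in wild type. The 2 wild type arrays were the only low ones among the 12 for this gene. The log2 difference was 1.48 ± 0.19 (limma adjusted p = 0.00184). Tap1, its divergent neighbour, had log2 levels of 8.51, 8.11, 8.40 and 7.99 in TCL1-192 peritoneum, against 8.05 and 7.88 in wild type, and was not called, with a log2 difference of 0.29 ± 0.21. So of the pair Tap1 was called between tissues and Psmb9 between genotypes; the difference between their responses was not tested. Psmb8, another immunoproteasome gene, had a log2 difference of 0.10 ± 0.17 between TCL1-192 and wild type peritoneum and was not called.

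Gbp2 had log2 levels of 9.54, 9.44, 9.24 and 8.58 in TCL1-192 peritoneum, against 11.55 and 11.06 in wild type. No TCL1-192 array of either tissue reached the wild type levels. Gbp2 fell by 2.11 on the log2 scale with an SE of 0.21 (limma adjusted p = 0.000539), a 4.31-fold difference. Gbp3 had log2 levels of 10.25, 10.37, 10.25 and 9.94 in TCL1-192 peritoneum, against 11.14 and 11.06 in wild type, where both arrays lay above the other 10. Its log2 difference was -0.90 ± 0.17 (limma adjusted p = 0.00855), and on its second kept probe both wild type arrays also lay above the TCL1-192 peritoneal arrays. The other GTPases went up. Ifi47, at 10.29, 10.58, 9.82 and 9.87 in TCL1-192 peritoneum against 9.48 and 9.27 in wild type, had a log2 difference of 0.77 ± 0.17 (limma adjusted p = 0.0148). Igtp, at 9.95, 10.07, 9.84 and 9.88 in TCL1-192 peritoneum against 9.63 and 9.15 in wild type, had one of 0.55 ± 0.14 (limma adjusted p = 0.0295). Neither gene overlapped between the groups, and neither was called with median centring. The call of Igtp was also lost without PtC+ peritoneal replicate 2 or any spleen array.

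Oasl2 was undetected on the 4 TCL1-192 peritoneal arrays (4.76, 4.99, 5.13 and 4.91) and had log2 levels of 6.56 and 6.41 in wild type. It was at least 1.54-fold lower in TCL1-192 peritoneum (limma adjusted p = 0.000986). Parp14, a mono-ADP-ribosyltransferase (chromosome 16), had log2 levels of 9.22, 9.38, 9.60 and 9.54 in TCL1-192 peritoneum, against 10.45 and 10.80 in wild type. All 8 TCL1-192 arrays of both tissues lay below the 4 young TCL1 and wild type arrays. Its log2 difference was -1.19 ± 0.15 (limma adjusted p = 0.00176).

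Ifit3 had log2 levels of 5.66, 6.59, 5.78 and 5.15 in TCL1-192 peritoneum, against 7.13 and 6.62 in wild type. The highest TCL1-192 array came within 0.03 of the lower wild type array, and Ifit3 fell by 1.08 on the log2 scale with an SE of 0.30 (limma adjusted p = 0.0374). Ddx58 had log2 levels of 6.90, 6.10, 7.65 and 6.06 in TCL1-192 peritoneum, against 8.0 and 8.32 in wild type. The TCL1-192 arrays spread widely, the last being undetected on the array of raised background. The log2 difference of -1.49 ± 0.46 passed narrowly (limma adjusted p = 0.0497) and was lost in 11 of 20 alternative analyses, among them those that left out either PtC+ peritoneal array or any of the 4 spleen arrays. Ifit3 was lost in 9 of 20, among them those without PtC+ peritoneal replicate 1 or any of the 4 spleen arrays.

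Bst2 (chromosome 8) had log2 levels of 10.08, 9.56, 9.64 and 9.36 in TCL1-192 peritoneum, against 8.58 and 9.07 in wild type. There was no overlap, and the log2 difference was 0.84 ± 0.21 (limma adjusted p = 0.0243). Trim30, a ubiquitin ligase family member that restrains Toll-like receptor signalling in mouse (chromosome 7), had log2 levels of 8.62, 9.08, 8.44 and 8.42 in TCL1-192 peritoneum, against 8.17 and 7.87 in wild type. Its groups did not overlap, with a log2 difference of 0.62 ± 0.18 (limma adjusted p = 0.0416). Ifi35, a leucine zipper protein, had log2 levels of 9.40, 9.60, 8.84 and 8.69 in TCL1-192 peritoneum, against 8.73 and 8.35 in wild type. The groups overlapped, since a PtC- TCL1-192 array lay below the PtC+ wild type array, and the log2 difference of 0.59 ± 0.18 passed narrowly (limma adjusted p = 0.0468). The calls of Bst2, Trim30 and Ifi35 were lost with median centring, and each was lost without at least 1 TCL1-192 array: PtC+ spleen replicate 1 or 2 for Bst2, PtC+ peritoneal replicate 2 or any spleen array for Trim30, and either PtC+ peritoneal array or any spleen array for Ifi35.

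Among the genes not called, Stat2, Irf9, Ifitm3, Eif2ak2 and Lgals3bp had every TCL1-192 peritoneal array below both wild type arrays, and Irf7 and Usp18 every one above. The log2 differences of the 5 ranged from -1.19 to -0.34, and Irf7 and Usp18, undetected in wild type, were at least 1.01-fold and 1.03-fold higher without passing (limma adjusted p = 0.0764 and 0.215). The remaining 12 overlapped between the groups. Oas2 and Mx2 were undetected in both, Ifit2 and Rsad2 in TCL1-192 peritoneum and Oasl1 in wild type, and the other 7 had log2 differences from -0.53 to 0.29.

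**Figure D3:**
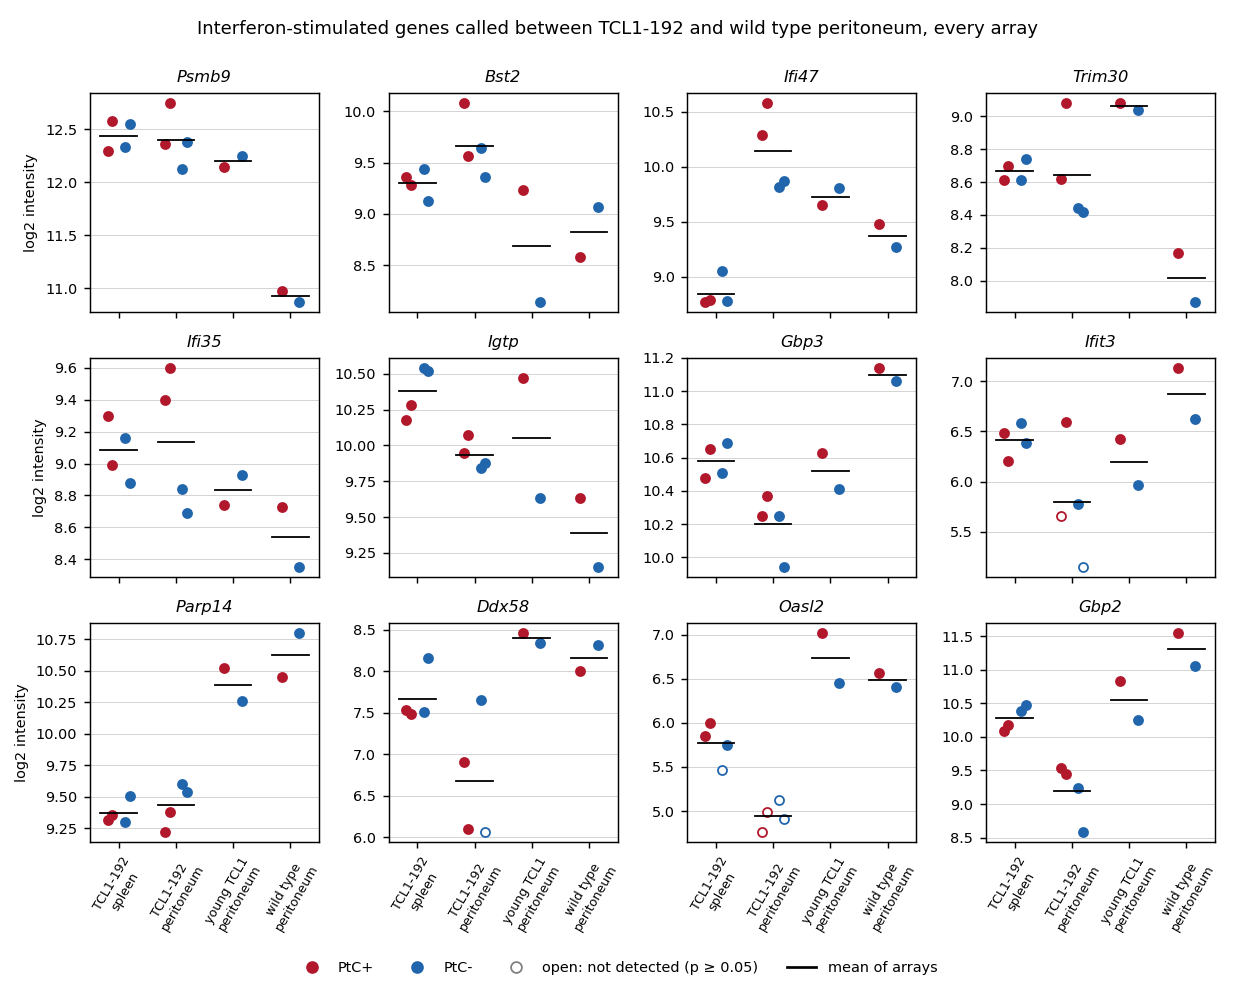
Each panel is 1 of the 12 interferon-stimulated genes called between TCL1-192 peritoneum and wild type peritoneum, and each point 1 array, with log2 intensity on an axis that does not start at 0. Red points are PtC+ cells, blue points PtC- cells, open points arrays that did not detect the gene, and lines the mean of a tissue and genotype; Psmb9 is low on the 2 wild type arrays, and Parp14, Gbp2 and Gbp3 are highest there or in young TCL1 cells.

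Of the other pathway genes, 1 of 24 ligands, receptors, kinases and factors was higher and 12 were lower in TCL1-192 than in wild type peritoneum. The share of all genes was 11.8% higher and 15.6% lower. Stat4, a factor of interleukin 12 and type I interferon signalling, was undetected in TCL1-192 peritoneum and at least 4.24-fold lower (limma adjusted p = 1.24e-05). Jak2 fell by 2.18 on the log2 scale, Socs3 by 1.33 and Tyk2, the kinase of the type I receptor, by 0.97. Among 15 sensors and adaptors 1 was higher, Cgas, at least 3.67-fold, and 2 were lower, Traf3 with a log2 difference of -2.13 ± 0.26 and the kinase Tbk1 with one of -0.61 ± 0.14. Among 48 further interferon-induced genes 1 was higher and 15 were lower. Ly6a (Sca-1) was undetected on all 4 TCL1-192 peritoneal arrays and at least 389-fold lower than in wild type (limma adjusted p = 1.71e-06), and it was also undetected in young TCL1 cells. Gbp6, Ube1l (now Uba7, which activates ISG15) and Gbp5 had log2 differences of -2.30 ± 0.25, -2.09 ± 0.24 and -1.91 ± 0.37.

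Between young TCL1 and wild type peritoneum, 1 of the 31 genes was called. All genes called made up 0.607% higher and 0.917% lower (limma, adjusted p under 0.05), and both groups had 1 array of each PtC class, assumed to vary like the TCL1-192 replicates. Psmb9 had log2 levels of 12.15 and 12.25 in young TCL1 cells, against 10.98 and 10.87 in wild type. Both young TCL1 arrays lay above both wild type arrays, with a log2 difference of 1.27 ± 0.22 (limma adjusted p = 0.046). The size barely moved between alternatives (1.17 to 1.38), but the call was lost in 11 of 20, among them those without either PtC+ peritoneal array or any spleen array of TCL1-192, which enter only through the estimate of the spread. Ly6d and Pacsin1 were lower (mean log2 level 9.65 to 9.72 in young TCL1 cells, against 11.16 to 11.20 in wild type). Also lower was 1 of 17 macrophage markers, and 2 of 6 erythroid markers were higher. The part of these markers' cell types in the differences was not tested. The median log2 difference of the 31 genes was 0.09, against 0.01 for all genes, and at an unadjusted p under 0.05 there were 7 of them (11.7% of all genes).

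The next 4 genes by moderated t did not pass. Trim30 had log2 levels of 9.08 and 9.04 in young TCL1 cells, against 8.17 and 7.87 in wild type, and a log2 difference of 1.03 ± 0.21 (limma adjusted p = 0.0747). Igtp had levels of 10.47 and 9.63 in young TCL1 cells, against 9.63 and 9.15 in wild type, with a log2 difference of 0.66 ± 0.17. Ifit2 had levels of 6.40 and 6.21 in young TCL1 cells, against 5.61 and 5.68 in wild type, with a log2 difference of 0.65 ± 0.20. On the second kept probe of Ifit2 the levels were 6.22 and 5.59, against 6.04 and 6.11, without such a rise. Gbp2 had levels of 10.84 and 10.25 in young TCL1 cells, against 11.55 and 11.06 in wild type, with a log2 difference of -0.76 ± 0.24. On the probes used, the arrays did not overlap for these 4 genes, as for 18.9% of all genes above and 17.4% below. The nearest pair for Igtp was equal to 2 decimals.

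TCL1-192 peritoneum was also set against young TCL1 peritoneum, with the same TCL1-192 arrays as above. Of the 31 genes 1 was higher and 5 were lower, while 7.94% of all genes were higher and 11.7% lower (limma, adjusted p under 0.05). Their median log2 difference was -0.11, against 0.01 for all genes. All 4 TCL1-192 arrays lay above both young TCL1 arrays for 3 genes (15.4% of all genes) and below them for 9 (17.7% of all genes). Of the markers, 4 of 6 erythroid, 2 of 17 macrophage and 1 of 4 T cell markers and Dcn were higher in TCL1-192 peritoneum. Lower were 3 of 4 mast cell markers, Ly6d and Pacsin1, 2 of 3 natural killer cell and 2 of 4 B-1 cell markers. So were 1 of 17 macrophage, 1 of 4 T cell and 1 of 4 neutrophil markers. The part of these markers' cell types was not tested. Oasl2 had log2 levels of 7.02 and 6.45 in young TCL1 cells and was at least 1.83-fold lower in TCL1-192 peritoneum, where it was undetected (limma adjusted p = 0.000657). Ifit2 had log2 levels of 5.62, 5.51, 4.90 and 4.88 in TCL1-192 peritoneum, all undetected, against 6.40 and 6.21 in young TCL1 cells. It was at least 1.36-fold lower (limma adjusted p = 0.00691). Gbp2 had a log2 difference of -1.35 ± 0.21 (limma adjusted p = 0.00537), and both young TCL1 arrays lay above all TCL1-192 peritoneal arrays. Parp14 had log2 levels of 10.52 and 10.26 in young TCL1 cells, above every TCL1-192 array, with a log2 difference of -0.95 ± 0.15 (limma adjusted p = 0.00633). Ddx58 had log2 levels of 8.46 and 8.34 in young TCL1 cells, also above all TCL1-192 arrays, with a log2 difference of -1.72 ± 0.46 (limma adjusted p = 0.0393), a call lost without either PtC+ peritoneal array or any spleen array of TCL1-192. Bst2 had log2 levels of 9.23 and 8.14 in young TCL1 cells, below the TCL1-192 peritoneal levels, with a log2 difference of 0.98 ± 0.21 (limma adjusted p = 0.0187). Psmb9 had a log2 difference of 0.21 ± 0.19 and was not called. With median centring, which moved the median of all genes to -0.25, none of the 31 was higher and 6 were lower, beside 346 of all genes higher and 1882 lower. The median log2 difference of the 31 was -0.16 without PtC- peritoneal replicate 1 (-0.03 for all genes). Without the array of raised background it was -0.12 (0.01 for all genes).

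**Figure D4:**
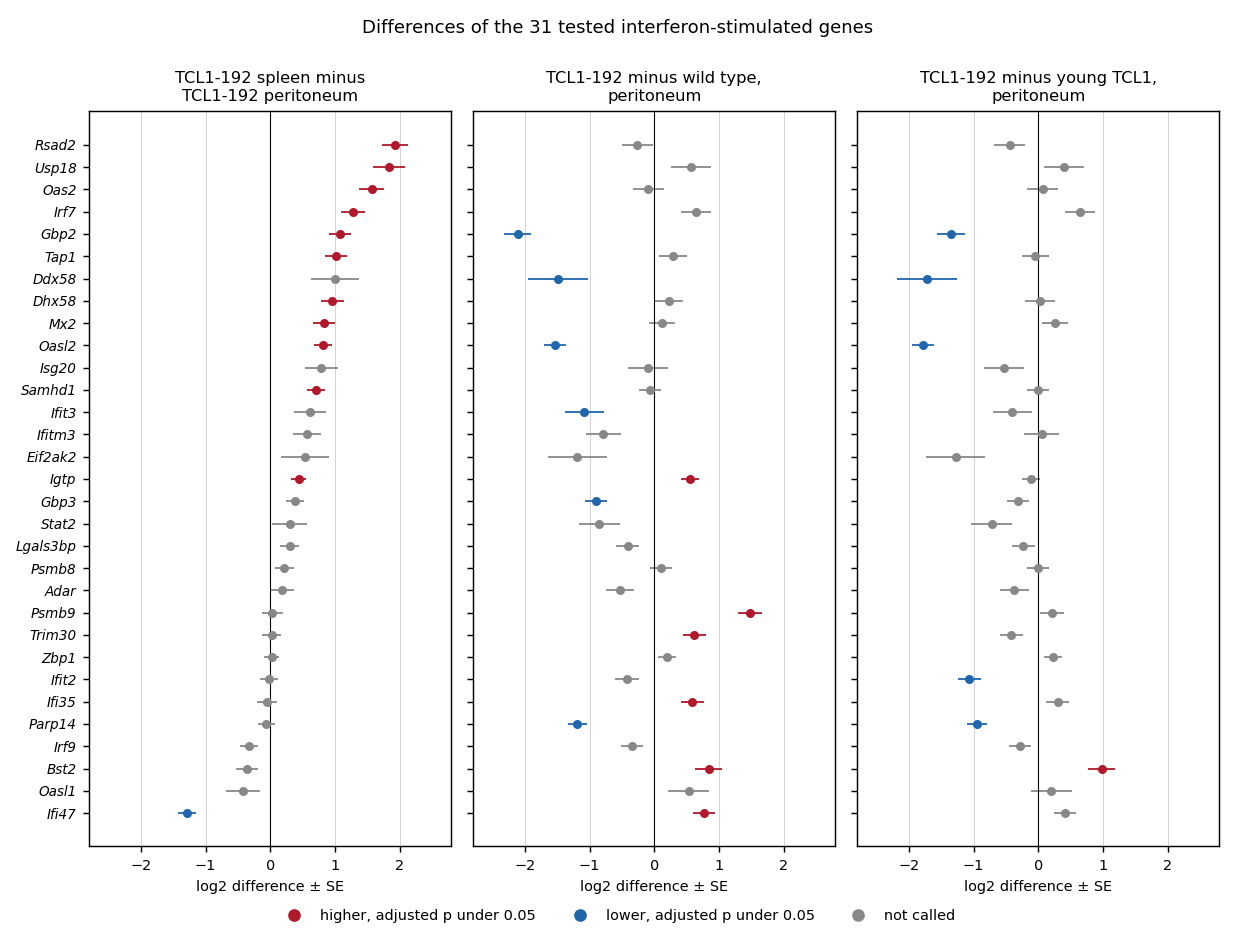
Points are log2 differences of the 31 tested interferon-stimulated genes, with SE as bars, for TCL1-192 spleen minus TCL1-192 peritoneum, TCL1-192 minus wild type peritoneum and TCL1-192 minus young TCL1 peritoneum from left to right. Red marks genes called higher, blue genes called lower and grey genes not called, and values of genes undetected on a side are no bound; the first panel holds 11 red points and 1 blue point, the second 6 of each, and the third 1 red and 5 blue.

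The other pathway genes were also set against young TCL1 cells, where 7.94% of all genes were higher in TCL1-192 peritoneum and 11.7% lower. Of 24 ligands, receptors, kinases and factors, 8 were lower in TCL1-192 peritoneum and none was higher. At an unadjusted p under 0.05 there were 14 (33.8% of all genes). Jak2 fell by 1.69 on the log2 scale and Ifngr2 by 1.08, and Stat4 was at least 2.04-fold lower. Of 15 sensors and adaptors 1 was higher, Cgas with a log2 difference of 1.80 ± 0.27, and 2 were lower, Traf3 with one of -1.53 ± 0.26 and Tbk1 with one of -0.89 ± 0.14. Of 48 further interferon-induced genes 1 was higher and 12 were lower, with Ccl5, a chemokine of T and natural killer cells, at least 4.21-fold lower and Gvin1, a very large inducible GTPase, at a log2 difference of -2.13 ± 0.21. Between young TCL1 and wild type, 0.607% of all genes were higher and 0.917% lower. There 1 of the 24 was lower, and 0 of the 15 sensors and adaptors were called (0 also at an unadjusted p under 0.05). Of the 48 further genes 1 was higher and 2 were lower. Those 2 were Ly6a, at least 502-fold lower in young TCL1 cells, and Ly6e, with a log2 difference of -2.08 ± 0.23.

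Binding to PtC was not tied to a called difference in any of the 31 genes. In TCL1-192 cells over both tissues 0 of 31 were called by limma, as were 0% of all genes. At an unadjusted p under 0.05 there were 2 (8.56% of all genes). The median log2 difference of the 31, PtC+ minus PtC-, was 0.15, against 0.02 for all genes. Oasl1, a synthetase-like protein without known synthetase activity, had log2 levels of 5.08 and 4.91 in PtC+ and 5.72 and 6.96 in PtC- cells of the peritoneum. The same gene was undetected in spleen, at 5.02 and 5.21 in PtC+ and 5.39 and 5.38 in PtC- cells. The PtC- level of 6.96 came from the array of raised background. All PtC+ arrays lay below all PtC- arrays (1.06% of all genes), but on the second kept probe of Oasl1 the classes overlapped. The PtC+ side, at least 1.19-fold lower, did not pass (limma adjusted p = 0.58). Ifi35 had log2 levels of 9.30 and 8.99 in PtC+ and 9.16 and 8.88 in PtC- spleen, and its log2 difference over both tissues of 0.43 ± 0.15 did not pass. Ifit2, Dhx58 and Ifi47 followed, none past the test. Dhx58 and Ifi47 had log2 differences of 0.33 ± 0.18 and 0.23 ± 0.14, and Ifit2, undetected on all 8 TCL1-192 arrays, gives no measured difference there.

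Within the peritoneum 0 of 31 genes were called by limma (0% of all genes), with 7 at an unadjusted p under 0.05 (19.3% of all genes). Oasl1, Ifi35, Ifit2, Ifi47 and Isg20 had the highest moderated t, with limma adjusted p of 0.184 to 0.230. Ifi35, Ifi47 and Isg20 had log2 differences of 0.73 ± 0.21, 0.59 ± 0.19 and 0.95 ± 0.36, and Ifit2 was undetected in both classes. Oasl1 was at least 1.58-fold lower in PtC+ cells, which did not detect it. The second kept probe of Oasl1 did not show this, at 4.74 and 4.99 in PtC+ and 4.88 and 4.77 in PtC- cells. Isg20 had log2 levels of 6.67 and 7.35 in PtC+ and 6.55 and 5.57 in PtC- peritoneal cells, the last undetected. On the probes used, the classes did not overlap for any of these genes, as in 25% of all genes above and 21.3% below. Without PtC- peritoneal replicate 1, which leaves the array of raised background alone in its group, 6 of the 31 were called, beside 2758 of all genes. Within the spleen 0 of 31 were called (0% of all genes), with 1 at an unadjusted p under 0.05 (2.56% of all genes). That gene was Mx2, with PtC+ levels of 6.35 and 6.07, PtC- levels of 5.53 and 5.67 and a log2 difference of 0.61 ± 0.23 (limma adjusted p = 1). Oas2 had the same log2 difference, 0.61 ± 0.27, and Zbp1, at 6.67 and 6.67 in PtC+ and 6.33 and 6.34 in PtC- spleen, one of 0.33 ± 0.17. Igtp and Rsad2 had log2 differences of -0.30 ± 0.17 and -0.45 ± 0.28.

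No gene had a PtC difference that differed between TCL1-192 spleen and peritoneum by the limma test of that difference (0 of 31 and 0% of all genes, with 3 of 31 and 11.5% of all genes at an unadjusted p under 0.05). Ifi47, Ifit2, Gbp2, Mx2 and Adar had the highest moderated t, with limma adjusted p of 0.409 to 0.443. Ifi47, Gbp2 and Adar stood at -0.72 ± 0.27, -0.87 ± 0.34 and 0.79 ± 0.36 on the log2 scale, while Ifit2 was undetected in both tissues and Mx2 in the peritoneum. Over young TCL1 and wild type cells, 0 of 31 were called between PtC+ and PtC- (1.12% of all genes in either direction), with 3 at an unadjusted p under 0.05 (8.57% of all genes). Igtp, at 10.47 in PtC+ and 9.63 in PtC- young TCL1 cells and 9.63 in PtC+ and 9.15 in PtC- wild type cells, had a log2 difference of 0.66 ± 0.17 (limma adjusted p = 0.217). Lgals3bp had a log2 difference of 0.56 ± 0.21, Rsad2, undetected in PtC- cells, was at least 1.23-fold higher in PtC+ cells without passing (limma adjusted p = 0.562), Gbp2 had one of 0.54 ± 0.24 and Zbp1 one of 0.36 ± 0.17. The PtC difference in TCL1-192 peritoneum did not differ from that in young TCL1 and wild type cells for any of the 31 (0.69% of all genes called), with 1 at an unadjusted p under 0.05 (17.8% of all genes) and Lgals3bp leading at -0.79 ± 0.30 on the log2 scale (limma adjusted p = 0.242). Ifi35, Igtp and Adar followed at 0.64 ± 0.29, -0.51 ± 0.24 and -0.76 ± 0.36, with Ifit2, undetected in TCL1-192 peritoneum, between them in rank.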

How the data were processed

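RNA of 12 samples in 8 groups was hybridised to Illumina mouse bead arrays, 1 array a sample, after amplification to biotinylated cRNA, per the labels' protocols. The values used are the deposited bead intensities, not normalized, with a detection p-value for each probe and array that the authors deposited beside them, per the file headers. A second deposited table of intensities normalized by the authors served as an alternative. The labels and headers used here name neither the scanner software nor how the authors normalized.

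Intensities were background corrected by normal-exponential convolution with control probes inferred from the detection p-values, given an offset of 16, quantile normalized and log2 transformed (neqc of limma 3.58.1 in R 4.3.3). Probes detected (p under 0.05) on at least 2 arrays were kept (18100), and the probe with the highest mean stood for a symbol, 3479 symbols having several. This left 13190 genes. limma fitted 1 mean for each group with 4 residual degrees of freedom and a prior of 3.13, and Benjamini-Hochberg adjustment ran over all genes at a two-sided threshold of 0.05. Lone arrays (young TCL1, wild type) were assumed to vary like the TCL1-192 replicates. The procedure was tested on simulated data.

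The genes and lists were chosen with earlier results of these data known. Every listed gene was accounted for; named with values were those past the test, the 5 with the highest moderated t in a comparison with fewer calls, and up to 4 called genes of each other pathway list by size. Bounds on folds cover detection only. Alternatives were median centring, the authors' table, an offset of 50, other filters on dim probes, the mean of a symbol's probes, an intensity trend, array weights, a robust prior (chosen after seeing the data), a replicate block, each PtC class alone and leaving out single arrays.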

Additional observations from a re-analysis of the deposited data

How the results depend on the processing

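None of the interferon-stimulated genes changed direction in a comparison where it was called, in any alternative that tested it. The genes of the other pathway lists were not followed through the alternatives. For TCL1-192 spleen against TCL1-192 peritoneum, 7 of 25 tested interferon-stimulated genes were higher when probes had to be detected on 6 arrays. Of all 10484 genes then tested, 1989 were higher. In PtC+ cells alone 8 of the 31 were higher, beside 1619 of all 13190 genes, and in PtC- cells alone 5, beside 524 of all genes. The calls of Dhx58, Gbp2 and Igtp were lost in PtC+ cells alone. Those of Oas2, Oasl2, Mx2, Samhd1, Tap1 and Igtp were lost in PtC- cells alone. Without single arrays 8 to 17 were higher and 1 to 2 lower. For TCL1-192 against wild type peritoneum, 1 was higher and 10 lower with median centring, 3 higher and 3 lower in PtC+ cells alone, and 1 higher in PtC- cells alone. Without single arrays 2 to 7 were higher and 4 to 9 lower. For young TCL1 against wild type, 0 were higher with median centring, with no filter, with detection on 6 arrays and in either PtC class alone, 3 with the authors' deposited normalized table or an intensity trend, 2 with an offset of 50 or array weights, and 0 to 2 without single arrays. For TCL1-192 against young TCL1 peritoneum, 0 were higher with median centring and in PtC+ cells alone, 3 were lower in PtC- cells alone, and 1 to 2 were higher and 4 to 8 lower without single arrays. An intensity trend gave 1 call between PtC classes of young TCL1 and wild type cells. Without single arrays the calls numbered 0 to 2 between PtC classes of TCL1-192, 0 to 6 in its peritoneum, 0 to 4 for the difference between its tissues and 0 to 3 for that between genotypes. The cause of these moves was not tested. Each highest count came without PtC- peritoneal replicate 1 or without PtC- peritoneal replicate 2, and some were reached alike without either.

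Without single arrays, all genes called numbered 1817 to 5953 between spleen and peritoneum, 2521 to 6048 against wild type and 59 to 504 between young TCL1 and wild type. Replicate numbers in the labels are not said to mark animals, and samples of the same number deviated together with correlations of 0.05 to 0.26. With the replicate block 11 genes were higher and 1 lower in spleen, 7 higher and 5 lower against wild type, where the calls of Ddx58 and Ifit3 were lost, 1 higher between young TCL1 and wild type, and 1 higher and 5 lower against young TCL1. With the array genes Irgm and BC003281, older names of Irgm1 and Parp9, added after seeing the data, 12 were higher in spleen and 1 lower. Genes near background, such as Mx2, Oasl2 and Oasl1, have little signal above it to measure.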
